A study of Homo sapiens with 8 samples.

Results

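The exocyst subunit genes EXOC1 to EXOC8 and the related gene EXOC3L2 were followed in SH-SY5Y cells, an established human neuroblastoma line of noradrenergic type, exposed to maleic acid. The exposure lasted 24 h, and the groups were a control without maleic acid and cells given 10 μM, 50 μM or 100 μM of it. Maleic acid is a small dicarboxylic acid used in industrial chemistry. The RNA of each dose was 1 sample, hybridised to 2 one-colour Human Whole Genome OneArray slides (Cy5), so that 8 arrays stood for 4 RNA samples. The 2 arrays of a dose are technical replicates, and every standard error (SE), interval and p-value below measures the spread between arrays and not between cultures. The members were all probes with a single gene symbol among these 9 genes, which gave 12 probes out of 31741 in the table, of which 24658 had a single symbol. EXOC3L2 was included because its signal was among the strongest to increase at 100 μM, so its own values are given as a description without a test. The 8 subunits, measured by 11 probes, were included as the complex to which its name refers. Probes were compared with themselves between doses and not with each other, since the brightness of different probes is not on 1 scale. Where a gene had 2 probes, they are called brighter and dimmer only to name them.

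The exocyst is a tethering complex that holds a secretory vesicle at the plasma membrane before SNARE proteins fuse the membranes. Its subunits are arranged in a subcomplex of EXOC1 to EXOC4 and a subcomplex of EXOC5 to EXOC8, and small GTPases, among them those of the RAL and RAB families, control its assembly and position. In neurons the complex is known for its place at sites of neurite growth. EXOC3L2 is related in sequence to EXOC3 and has been described in endothelial cells, where it was tied to signalling by a receptor of vascular endothelial growth factor (VEGF).

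The promoter windows of 3 of these genes are shown because EXOC3L2 had the largest difference, EXOC1 was the only subunit past the test at 100 μM, and EXOC3 is the subunit to which EXOC3L2 is related. They are RefSeq sequences of build GRCh38.p14, from 250 bases before to 50 after the annotated start, 5′ to 3′ on the strand of the gene. Capitals mark CGGAAGT on either strand, where ACTTCCG is the reverse complement. This is the core letters of an ETS-type motif. EXOC3L2 lies on the minus strand at chr19:45245358-45245657, EXOC1 on the plus strand at chr4:55853398-55853697 and EXOC3 on the plus strand at chr5:442926-443225.
EXOC3L2: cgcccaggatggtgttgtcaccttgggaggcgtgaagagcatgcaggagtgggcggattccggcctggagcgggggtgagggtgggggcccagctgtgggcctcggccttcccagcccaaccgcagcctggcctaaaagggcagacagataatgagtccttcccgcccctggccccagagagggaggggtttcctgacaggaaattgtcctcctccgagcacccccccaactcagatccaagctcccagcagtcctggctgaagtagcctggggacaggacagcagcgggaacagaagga
EXOC1: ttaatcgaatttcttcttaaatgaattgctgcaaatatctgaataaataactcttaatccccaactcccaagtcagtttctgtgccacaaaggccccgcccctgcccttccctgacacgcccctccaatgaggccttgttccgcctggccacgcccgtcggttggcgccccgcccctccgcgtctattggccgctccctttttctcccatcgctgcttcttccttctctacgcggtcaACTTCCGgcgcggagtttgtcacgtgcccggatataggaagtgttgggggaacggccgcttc
EXOC3: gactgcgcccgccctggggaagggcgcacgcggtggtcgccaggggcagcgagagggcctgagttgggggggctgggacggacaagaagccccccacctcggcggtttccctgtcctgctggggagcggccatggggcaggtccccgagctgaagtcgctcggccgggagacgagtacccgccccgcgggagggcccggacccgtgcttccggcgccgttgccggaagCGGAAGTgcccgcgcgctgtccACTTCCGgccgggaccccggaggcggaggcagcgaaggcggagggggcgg

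CGGAAGT was present in at least 1 window of each of the 8 subunit genes and was not found in the window of EXOC3L2. Its absence was not particular to EXOC3L2. The windows of EXOC3L4 and TNFAIP2, which are also related to EXOC3, did not hold it either. The motif was chosen after these sequences had been seen. It occurred in 6.8% of the 35116 windows of 300 bases in the reference, and in 11.6% of the 14579 measured genes that have a window. Counted from the start, where the first transcribed base is 1, the match lay at −12 to −6 in EXOC1, at 24 to 30 in EXOC2, at −91 to −85 in EXOC4, at −66 to −60 in EXOC6 and at −138 to −132 in EXOC8. EXOC3 had 2 matches, at −22 to −16 and at 1 to 7, and EXOC5 had 2, at −124 to −118 and at 7 to 13. EXOC6 had the match in 1 of its 3 windows. Both windows of EXOC7 overlap and hold the same match, at 12 to 18 from the first start. A match is a description of letters and not of binding.

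Of the other motifs searched on both strands, none occurred in all 8 subunit genes. GGGCGG, the core of a GC box, had 2 matches in EXOC3L2 and occurred in 45.0% of all windows. In EXOC2 a GGGCGG match at 21 to 26 overlapped the CGGAAGT match. TATAAA was found in none of the 12 windows of the members, against 11.5% of all windows. TGACNNNGC, the core of an antioxidant response element, had 1 match among the members, in EXOC4, and occurred in 13.3% of all windows. The EXOC3L2 window held 10 CpG and 64.3% G and C, and the medians over all windows were 14 CpG and 58.7%. The subunit windows held 0 to 43 CpG, both of these in EXOC6, and the window of EXOC3L4 held 10. Among the 1695 measured genes with CGGAAGT in a window, 3.19% were higher and 14.9% lower at 100 μM than in the control (limma, adjusted p under 0.05), and over all 14579 genes with a window the shares were 7.85% higher and 12.2% lower. The median log2 difference was −0.09 for genes with the motif and −0.04 for all genes with a window.

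**Figure D1:**
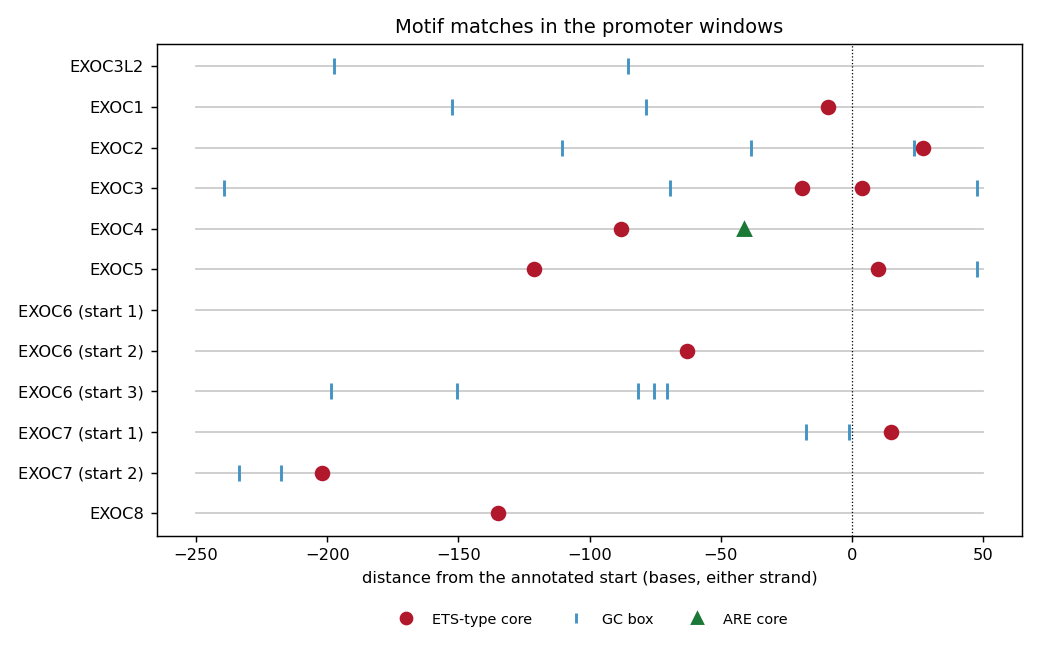
Motif matches in the promoter windows of EXOC3L2 and the 8 subunit genes. The x axis is the distance from the annotated start in bases and each grey line is 1 window. Circles are CGGAAGT (ETS-type core), vertical ticks GGGCGG (GC box) and the triangle TGACNNNGC (ARE core, antioxidant response element), on either strand. Circles appear in at least 1 window of every subunit gene and not in that of EXOC3L2. The windows of EXOC3L4 and TNFAIP2, which also lack CGGAAGT, are not drawn.

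EXOC3L2, measured by 1 probe with no second probe to compare, had its lowest signal in the control and its highest at 100 μM. Its deposited intensities were 164 and 119 in the control, 308 and 167 with 10 μM, 401 and 384 with 50 μM, and 574 and 682 with 100 μM. After quantile normalization its log2 intensities were 7.49 and 7.03 in the control, 8.33 and 7.74 with 10 μM, 8.45 and 8.29 with 50 μM, and 9.46 and 9.52 with 100 μM. Both control arrays lay below every treated array, both arrays at 100 μM lay above all others, and the arrays at 10 and 50 μM overlapped. The lowest normalized intensity of the probe was 131, above the level of 50 taken here as background. All 5 endothelial markers read below were also above this chosen level in the control. Passing it therefore does not show that the control signal came from the transcript. Each value is relative to the total RNA of a culture, so that a change in the share of cells with the transcript and a change in RNA per cell cannot be told apart.

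The log2 difference of EXOC3L2 from the control was 0.77 at 10 μM, 1.11 at 50 μM and 2.23 at 100 μM (SE 0.23 each). At 100 μM this was 4.70-fold, with a 95% interval of the log2 difference from 1.69 to 2.77 that covers array noise alone. The steps between neighbouring doses were 0.77 for 10 μM over the control, 0.34 for 50 μM over 10 μM and 1.12 for 100 μM over 50 μM. The middle step was within the distance between the 2 arrays at 10 μM, which was 0.59. By its difference at 100 μM the probe ranked 86 of 31741, where 914 probes (2.88%) were over 2-fold higher than in the control. Among the 6348 probes in the same quintile of mean signal, the median difference was −0.08 and 20 probes had a larger difference than EXOC3L2. Leaving out each array in turn gave differences of 1.96 to 2.39.

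**Figure D2:**
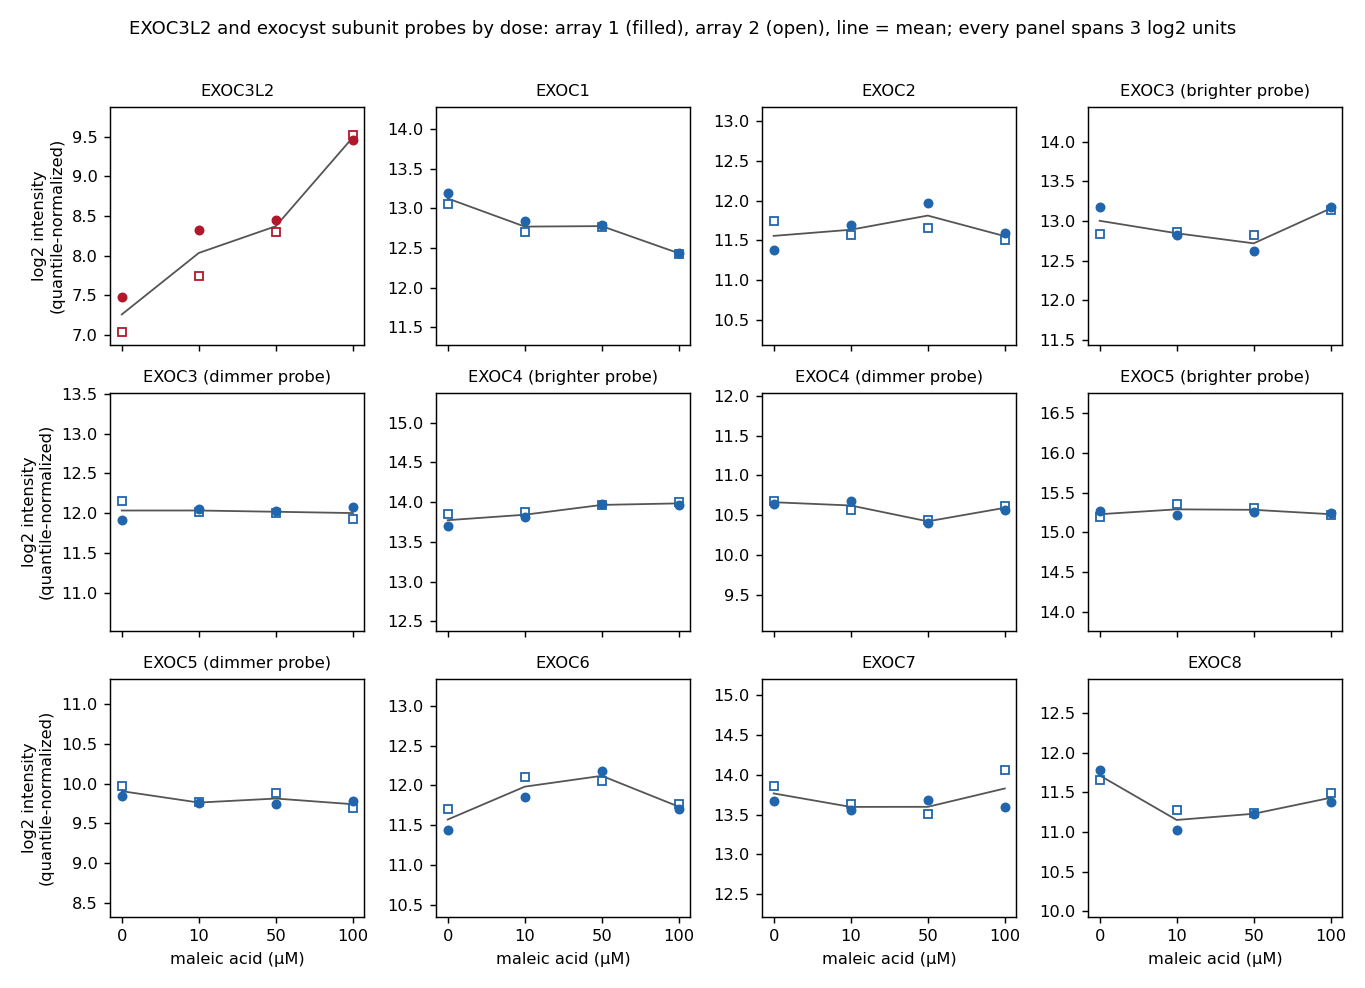
Quantile-normalized log2 intensity of the EXOC3L2 probe (red) and of the 11 subunit probes (blue) against the dose of maleic acid in μM. Filled circles are the first and open squares the second technical array of a dose, lines join the means, and every panel spans 3 log2 units. EXOC3L2 spans 7.03 to 9.52, and EXOC1 has its 2 lowest values at 100 μM.

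Markers of the cell type and of other cell types were read as lists of genes. At 100 μM 8.35% of all genes were higher and 11.9% lower by the limma test. A sum over a list is led by its brightest probes. All 10 measured markers of noradrenergic neuroblastoma were above background in the control. Their summed normalized intensity was 656596 to 673698 at 100 μM and 760714 to 775827 in the control, and most of it came from CHGA and STMN2. GATA3 was the 1 marker of the 10 past the test (lower), and the median log2 difference was −0.20. The 5 endothelial markers summed to 1018 to 1133 at 100 μM and 770 to 926 in the control, none was under background in the control, and 0 of 5 passed the limma test, while 2 had an unadjusted p under 0.05 (higher). The share of all genes at that unadjusted threshold was not computed. The median log2 difference of the endothelial markers was 0.17, against −0.03 for all genes. The 5 mesenchymal markers summed to 2859 to 3550 at 100 μM and 2296 to 2340 in the control, but 4 of the 5 had differences below 0 and the median was −0.16. COL3A1 passed the test and was lower, and the higher sum came with COL1A1, the 1 marker that was higher. The 4 measured leukocyte markers summed to 1416 to 1686 at 100 μM and 1022 to 1075 in the control, with 3 of the 4 under background in the control, CD14 the 1 that passed (higher) and a median difference of 0.02. The part of these shifts in the EXOC3L2 values was not tested.

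Of the exocyst subunits, only EXOC1 passed the test at 100 μM. The count that passed depended on the scaling, with 3 under median scaling and 9 unscaled, all lower. Of all 31741 probes, 4794 were lower under median scaling and 11367 unscaled. At 100 μM 1 of the 11 subunit probes passed the limma test over 8 arrays (adjusted p under 0.05), that of EXOC1, which was lower than in the control, and 10 did not. Of all probes, 19.4% passed at this dose, 8.94% higher and 10.4% lower. Under quantile normalization a count of 1 lower among 11 is thus close to the share over all probes, and no trait of the complex is read from it. With median scaling the median log2 difference of the subunit probes was −0.34, against −0.02 for all probes. Unscaled it was −0.65, against −0.34 for all probes, so the reading of the subunits as a set depended on the scaling. At 10 μM 0 of 11 passed, where 3.29% of all probes did (1.72% higher and 1.57% lower), with 1 higher and 2 lower at an unadjusted p under 0.05. At 50 μM 0 of 11 passed, where 2.3% of all probes did (1.13% higher and 1.17% lower). There 1 was higher and 3 lower at an unadjusted p under 0.05 in limma. The shares of all probes at that unadjusted threshold were not computed for 10 and 50 μM. Log2 differences at 100 μM ran from −0.69 to 0.21, and no subunit probe was past 2-fold in either direction, against 2.88% of all probes beyond it upward and 1.05% downward. Their median was −0.0036, against −0.03 for all probes, and the median size of the difference was 0.16, against 0.25 for all probes. Both arrays at 100 μM lay above both control arrays for 1 of the 11 probes and below them for 4, where 28.4% of all probes lay above and 33.9% below. At 10 μM 1 probe lay above and 4 below (26.7% and 32.9% of all probes), and at 50 μM 2 lay above and 4 below (29.3% and 33.3% of all probes).

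In the first subcomplex, EXOC1 (the SEC3 homologue, which binds phosphoinositides at the plasma membrane) fell at 100 μM. Its log2 intensities were 13.19 and 13.06 in the control, 12.84 and 12.70 with 10 μM, 12.79 and 12.76 with 50 μM, and 12.44 and 12.43 with 100 μM. Both control arrays lay above every treated array and both arrays at 100 μM lay below every other array. The log2 difference at 100 μM was −0.69 (SE 0.10, 95% interval −0.93 to −0.45, limma adjusted p = 0.00907), or 0.62 of the control signal. The differences at 10 μM (−0.35, limma adjusted p = 0.0984) and at 50 μM (−0.35, limma adjusted p = 0.0903) did not pass. Without the first control array the difference at 100 μM was −0.62 and did not pass either (limma adjusted p = 0.0560). In the deposited intensities EXOC1 had 12498 and 10799 in the control, 6272 and 5389 with 10 μM, 7637 and 7961 with 50 μM, and 4362 and 4867 with 100 μM.

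The other members of the first subcomplex did not pass the test at any dose. EXOC2, the SEC5 homologue and an effector of RAL GTPases, had log2 intensities from 11.37 to 11.97 with overlapping arrays at every dose, and a difference of −0.0036 at 100 μM (SE 0.16, 95% interval −0.39 to 0.39). EXOC3, the SEC6 homologue, had differences of 0.16 (SE 0.14) with its brighter and −0.03 (SE 0.11) with its dimmer probe at 100 μM. The brighter probe had its lowest mean at 50 μM, where the difference was −0.28 (limma adjusted p = 0.230). EXOC4, the SEC8 homologue, had log2 intensities of 13.69 and 13.85 in the control, 13.81 and 13.87 with 10 μM, 13.97 and 13.96 with 50 μM, and 13.97 and 14.00 with 100 μM with its brighter probe. This was the 1 subunit probe whose means followed the order of dose upward, as 9% of all probes did, and none followed it downward, as 9.27% of all probes did. Its difference at 100 μM was 0.21 (SE 0.098, limma adjusted p = 0.177), and the dimmer probe of the gene had −0.07 (SE 0.092, limma adjusted p = 0.631).

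In the second subcomplex no probe passed the test at any dose. EXOC5, the SEC10 homologue, had differences at 100 μM of 0.0001 (SE 0.098) with its brighter probe and −0.16 (SE 0.10, limma adjusted p = 0.302) with its dimmer probe. EXOC6, the SEC15 homologue that binds RAB11 on vesicles, had log2 intensities of 11.44 and 11.70 in the control, 11.86 and 12.11 with 10 μM, 12.18 and 12.06 with 50 μM, and 11.70 and 11.77 with 100 μM. Its arrays at 10 and 50 μM lay above both control arrays, while those at 100 μM overlapped them. The differences were 0.41 at 10 μM (SE 0.14, limma adjusted p = 0.127), 0.55 at 50 μM (SE 0.14, limma adjusted p = 0.0715) and 0.16 at 100 μM (SE 0.14, limma adjusted p = 0.450). EXOC7, the EXO70 homologue, which also binds phosphoinositides, had 13.60 and 14.06 at 100 μM and 13.67 and 13.86 in the control, so that the arrays of 1 RNA sample differed by more than the means.

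EXOC8, the EXO84 homologue and another RAL effector, was lowest at the lowest treated dose. Its log2 intensities were 11.78 and 11.65 in the control, 11.02 and 11.28 with 10 μM, 11.22 and 11.24 with 50 μM, and 11.38 and 11.49 with 100 μM. All treated arrays lay below both control arrays. The differences were −0.56 at 10 μM (SE 0.12, limma adjusted p = 0.0608), −0.48 at 50 μM (SE 0.12, limma adjusted p = 0.0720) and −0.28 at 100 μM (SE 0.12, limma adjusted p = 0.153).

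Over the rank of the 4 doses, 0 of 11 subunit probes had a trend at an adjusted p under 0.05 in limma, as was so for 0% of all probes. At an unadjusted p under 0.05 there was 1, EXOC1, with a slope of −0.21 log2 units per dose rank (limma adjusted p = 0.216), where 17.4% of all probes passed. The slope of EXOC3L2 was 0.70 per dose rank, which ranked 55 of 31741.

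**Figure D3:**
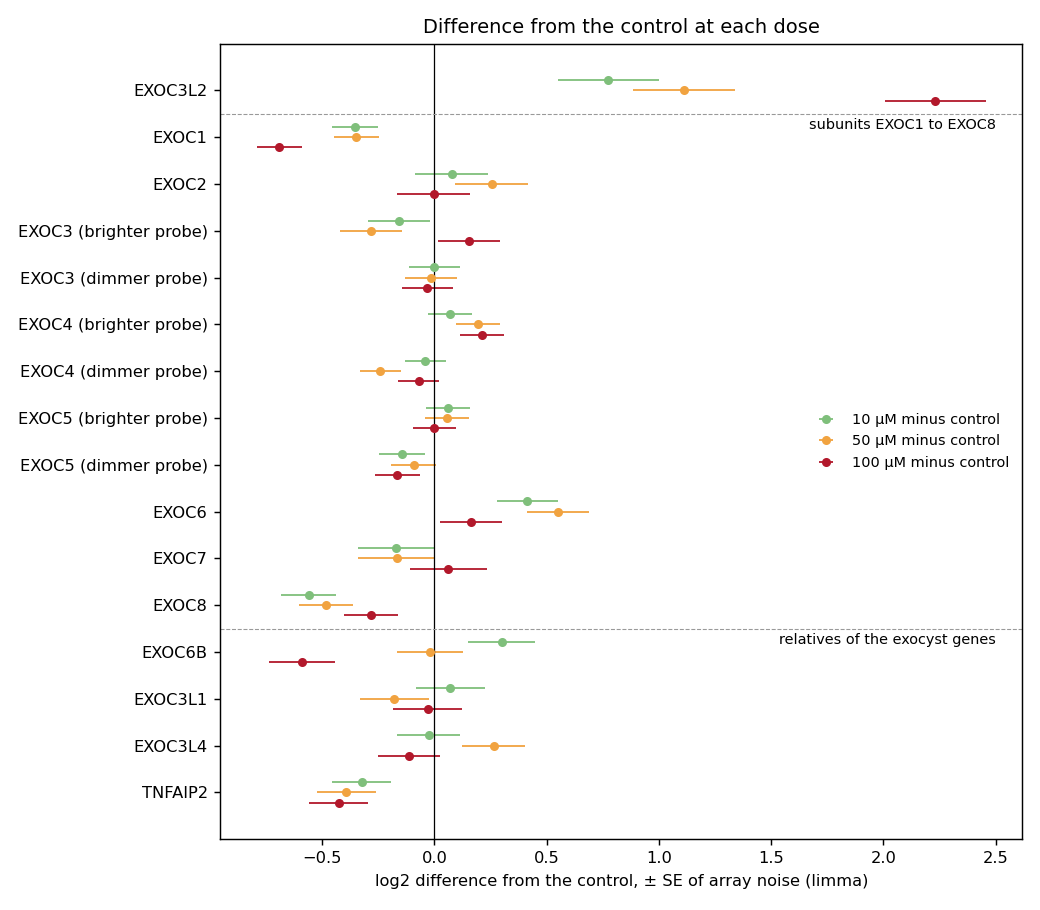
Log2 difference from the control (x axis) at 10, 50 and 100 μM maleic acid for EXOC3L2, the 11 subunit probes and 4 relatives of the exocyst genes, with bars of ± SE of array noise from the limma fit. EXOC3L2 reaches 2.23 at 100 μM, whereas the subunit probes at this dose lie between −0.69 and 0.21.

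No relative of the exocyst genes passed the test in the upward direction. Of 5 genes listed, 4 were measured by 1 probe each and EXOC1L was not analysed here. Of these 4, 1 passed the test at 100 μM, EXOC6B, which was lower, where 8.94% of all probes were higher and 10.4% lower. EXOC6B, the paralog of EXOC6, had log2 intensities of 7.91 and 8.04 in the control, 8.10 and 8.45 with 10 μM, 8.06 and 7.86 with 50 μM, and 7.33 and 7.45 with 100 μM. Both arrays at 100 μM lay below every other array. The difference was −0.59 (SE 0.15, 95% interval −0.94 to −0.24, limma adjusted p = 0.0370), and it did not pass when either control array, either array at 50 μM or either array at 100 μM was left out (limma adjusted p = 0.0576 to 0.160), nor with median scaling, where it was −0.36 (limma adjusted p = 0.130).

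TNFAIP2, a protein related to EXOC3 that takes part in forming tunnelling nanotubes, had log2 intensities of 10.04 and 9.89 in the control, 9.50 and 9.78 with 10 μM, 9.65 and 9.50 with 50 μM, and 9.55 and 9.53 with 100 μM. All treated arrays lay below both control arrays, and the means followed the order of dose downward. The difference at 100 μM was −0.43 (SE 0.13, limma adjusted p = 0.0644), and it passed in 4 of 15 alternatives. The remaining SEC6-related genes had differences at 100 μM of −0.03 for EXOC3L1 (SE 0.15, limma adjusted p = 0.914) and −0.11 for EXOC3L4 (SE 0.14, limma adjusted p = 0.604), with overlapping arrays.

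Genes that act with the exocyst were read as lists at the level of genes, where 8.35% of the 18255 genes were higher and 11.9% lower at 100 μM and the median difference over all genes was −0.03. Of 20 GTPases and regulators of the exocyst, 19 were measured (RALA was not analysed here), 0 were higher, 2 lower and 17 did not pass, with a median of −0.06. RAB8B, a GTPase of traffic to the plasma membrane, had log2 intensities of 7.44 and 7.42 at 100 μM against 8.13 and 8.07 in the control, a difference of −0.67 (SE 0.10, limma adjusted p = 0.0101), and its 2 probes gave −0.70 and −0.64. RALGAPA2, a subunit of a RAL GTPase-activating protein, had −0.62 (SE 0.12, limma adjusted p = 0.0201). Neither passed when either control array was left out (limma adjusted p = 0.05 to 0.0988), nor did RALGAPA2 without either array at 100 μM (limma adjusted p = 0.0601 and 0.0680).

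Of the 14 plasma membrane SNAREs and SM partners measured, 1 was higher, 2 lower and 11 did not pass, with a median of −0.14. STX1A, the syntaxin of the neuronal plasma membrane, had log2 intensities of 13.89 and 13.84 at 100 μM against 13.47 and 13.32 in the control, a difference of 0.47 (SE 0.13, limma adjusted p = 0.0470) that was −0.16 in the unscaled values. STXBP3, the SM partner of syntaxin 4, had 6.54 and 6.43 at 100 μM against 7.15 and 7.23 in the control, a difference of −0.70 (SE 0.12, limma adjusted p = 0.0133) that was −0.25 after median scaling (limma adjusted p = 0.344). STXBP5, or tomosyn, an inhibitor of SNARE assembly, had −0.29 (SE 0.079, limma adjusted p = 0.0462) as the mean of 4 probes that disagreed, with 0.45, −0.22, −0.48 and −0.92. None of the 3 passed when either control array was left out (limma adjusted p = 0.0593 to 0.192). STX1A and STXBP5 also failed without either array at 10 μM or at 100 μM (limma adjusted p = 0.0610 to 0.141), and STXBP5 without either array at 50 μM (limma adjusted p = 0.0794 and 0.0798).

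The other tethering complexes of the same structural family (COG, GARP, EARP and NRZ, which act at the Golgi, endosomes and endoplasmic reticulum) had 16 of 16 genes measured, 0 higher, 3 lower and 13 that did not pass, with a median of −0.23. VPS54, a subunit of GARP, had log2 intensities of 7.41 and 7.26 in the control, 6.79 and 6.87 with 10 μM, 6.88 and 6.81 with 50 μM, and 6.66 and 6.62 with 100 μM. Its treated arrays all lay below both control arrays, and it passed at all 3 doses, with differences of −0.51 at 10 μM (limma adjusted p = 0.0415, where 2.11% of genes were lower), −0.49 at 50 μM (limma adjusted p = 0.0469, where 1.89% were lower) and −0.70 at 100 μM (SE 0.090, limma adjusted p = 0.00695). After median scaling the difference of VPS54 at 100 μM was −0.27 and did not pass (limma adjusted p = 0.133), and its calls at 10 and 50 μM, which lay close to the threshold, were not recomputed under the alternatives. COG7 had −0.39 at 100 μM (limma adjusted p = 0.0242) and did not pass when either control array or either array at 100 μM was left out (limma adjusted p = 0.0636 to 0.104). COG5 had −0.34 (limma adjusted p = 0.0474), from 1 probe at −0.0032 and 1 at −0.68. COG5 did not pass when any array was left out other than the second at 100 μM (limma adjusted p = 0.0625 to 0.176).

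Since EXOC3L2 has been described in endothelial cells, 12 genes of VEGF signalling and endothelium were read beside it. All 12 were measured, 0 were higher, 1 lower and 11 did not pass at 100 μM, where 8.35% of all genes were higher and 11.9% lower. At an unadjusted p under 0.05 in limma 3 were higher and 1 lower. As the share of all genes at that unadjusted threshold was not computed, no excess is read from these counts. The median log2 difference of the 12 genes was 0.09, against −0.03 for all genes. VEGFC was under background on every array. NRP1, a co-receptor of VEGF and semaphorins, had −0.52 at 100 μM (SE 0.096, limma adjusted p = 0.0159), which was 0.05 after median scaling, and its 3 probes gave −1.12, −0.61 and 0.16. It did not pass when either control array was left out (limma adjusted p = 0.0588 and 0.0890). KDR, the VEGF receptor of endothelial cells, had 7.06 and 6.60 at 100 μM against 7.02 and 6.88 in the control, with overlapping arrays and a difference of −0.12 (SE 0.20, limma adjusted p = 0.698).

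**Figure D4:**
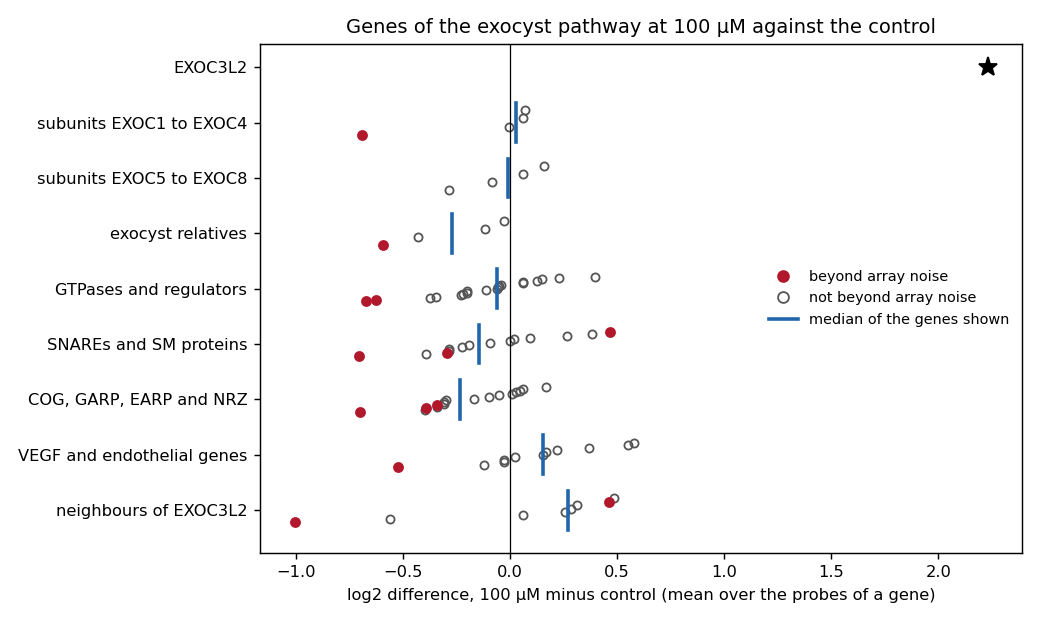
Log2 difference at 100 μM from the control (x axis, mean over the probes of a gene) for EXOC3L2 (star, not tested), the subunits, their relatives and the lists of genes read beside them. Filled circles passed the limma test at an adjusted p under 0.05, open circles did not, and bars are medians of the genes shown. Genes under background at both doses are not drawn. The star lies at 2.23 and the lowest circle, PPP1R37, at −1.0.

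The genes beside EXOC3L2 on the chromosome were read next. Of the 10 nearest measured neighbours, 5 on each side, 1 was higher, 1 lower and 8 did not pass at 100 μM, where 8.35% of all genes were higher and 11.9% lower. At an unadjusted p under 0.05 in limma 5 were higher and 2 lower. The share of all genes at that unadjusted threshold was not computed, so no excess is read from these counts. The median log2 difference of the neighbours was 0.16, against −0.03 for all genes. On the side of lower coordinates the nearest was BLOC1S3, a subunit of a complex for lysosome-related organelles, with log2 intensities of 12.25 and 12.10 at 100 μM against 11.70 and 11.72 in the control. Its difference was 0.46 (SE 0.12, limma adjusted p = 0.0398), which was −0.19 in the unscaled values, and it did not pass when either array of the control, of 50 μM or of 100 μM was left out (limma adjusted p = 0.0629 to 0.144). The next were TRAPPC6A, a subunit of a further tethering complex, with 0.26 (limma adjusted p = 0.118), and NKPD1, with −0.56 (limma adjusted p = 0.0632). NKPD1 lay near background, with log2 intensities of 6.14 and 5.66 at 100 μM against 6.50 and 6.42 in the control. Without the first array at 100 μM its difference was −0.75. TRAPPC6A passed at 50 μM, with 0.57 (limma adjusted p = 0.0464, where 1.6% of genes were higher), a call close to the threshold that was not recomputed under the alternatives. On the other side MARK4, a kinase of microtubule-associated proteins, and CKM, the muscle creatine kinase, were under background at 100 μM and in the control, and no fold is given. KLC3, a kinesin light chain, had 0.29 (limma adjusted p = 0.132). The lower call was PPP1R37, a regulator of protein phosphatase 1, which was named after its values were seen, with 7.49 and 7.83 at 100 μM against 8.64 and 8.69 in the control and a difference of −1.0 (SE 0.14, limma adjusted p = 0.00895).

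The probes whose pattern over the 8 arrays was nearest to that of EXOC3L2 were chosen by Euclidean distance of log2 values from the control mean, among 20788 probes with a single symbol and at least background signal on every array. They were IGF1 (distance 0.825), a growth factor, LAMB4 (0.885), a laminin chain, CRIM1 (0.910), a transmembrane protein that binds bone morphogenetic proteins, ADCY10 (0.921), the soluble adenylyl cyclase, and GCSAM (0.933), a signalling adaptor of germinal centre B cells. Their log2 differences at 100 μM were 1.87 for IGF1, 1.85 for LAMB4, 2.12 for CRIM1, 2.34 for ADCY10 and 1.86 for GCSAM. From 10 to 50 μM the difference went from 0.77 to 1.11 for EXOC3L2 and from 0.95 to 1.06 for IGF1. It went down for CRIM1 (1.37 to 0.96), ADCY10 (1.30 to 0.89), LAMB4 (1.095 to 1.084) and GCSAM (1.19 to 1.14). These probes were chosen for their likeness to the EXOC3L2 values, so the likeness is a description and not a test. The subunit probes, with differences of −0.69 to 0.21 at 100 μM, could not have been among them. IGF1 had log2 intensities of 7.20 and 7.30 in the control, 8.19 and 8.21 with 10 μM, 8.33 and 8.30 with 50 μM, and 9.07 and 9.16 with 100 μM. Its other probe had a difference of 0.71 (SE 0.24) at 100 μM, and the other probe of ADCY10 had 0.24 (SE 0.50), so that the likeness held for single probes and was smaller in the second probe of both genes.

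How the arrays are scaled moved the subunits more than EXOC3L2. For EXOC3L2 the difference at 100 μM stood at 2.23 under quantile normalization, 2.38 under cyclic loess, 2.48 under median scaling and 2.16 when the arrays were left unscaled. The 11 subunit probes had a median of −0.0036 under quantile normalization, −0.012 under cyclic loess, −0.34 under median scaling and −0.65 unscaled. All probes had medians of −0.03, −0.012, −0.02 and −0.34 under the same settings, so that the unscaled arrays at 100 μM were dimmer as a whole. Relative to these medians EXOC1 was at −0.66 under quantile normalization, −0.68 under cyclic loess and −0.995 both under median scaling and unscaled. Quantile normalization called 2837 probes higher and 3311 lower at 100 μM. Median scaling called 5118 higher and 4794 lower, and the unscaled values gave 1649 higher and 11367 lower. In the unscaled values 9 of the 11 subunit probes passed and were lower, as did 3 with median scaling. EXOC1 passed and was lower under all 4 scalings.

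**Figure D5:**
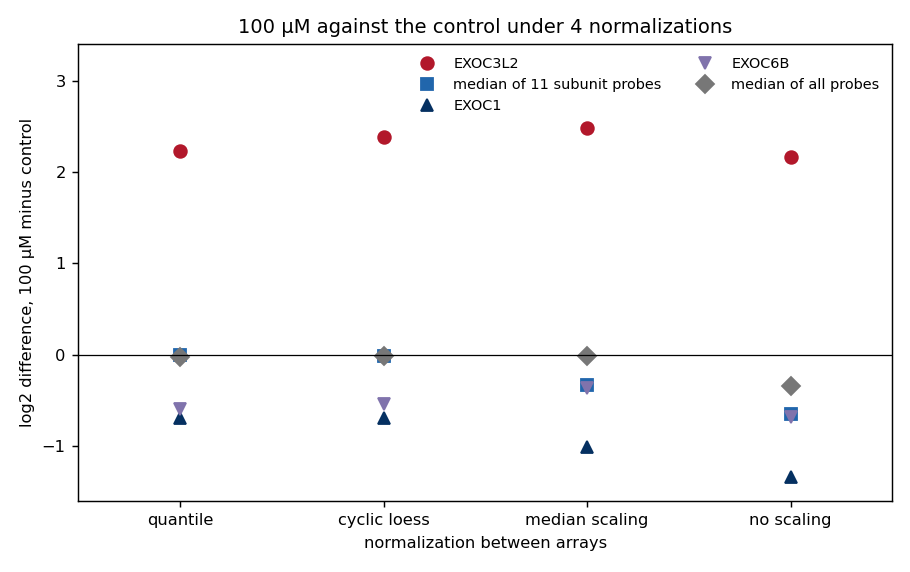
Log2 difference at 100 μM from the control (y axis) under 4 normalizations between arrays (x axis) for EXOC3L2, the median of the 11 subunit probes, EXOC1, EXOC6B and the median of all probes. EXOC3L2 stays between 2.16 and 2.48, and the subunit median lies between −0.65 and −0.0036.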

How the data were processed

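Slides were scanned and spots read with GenePix by the authors, who then used Rosetta Resolver and named a median scaling in their methods. The deposited unit was a linear intensity. Array medians ran from 336 to 524, so the deposited arrays do not share a median. How they subtracted the background was not stated in their methods or labels. Between 0 and 188 values per array were at or below 0.

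Intensities were floored at 1, put on the log2 scale and quantile-normalized between arrays (limma 3.58.1, R 4.3.3). The limma fit over the 8 arrays in 4 dose groups was two-sided, with Benjamini-Hochberg adjustment over all 31741 probes and a threshold of 0.05. The dose trend was fitted over the rank of dose to the dose means of both arrays (2 residual degrees of freedom). Gene values are means over the probes of a gene (18255 genes). Background was set at a normalized intensity of 50, with the values known. No count depth exists for arrays, and their number limits the precision.

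Symbols came from the platform annotation, with 22404 probes under a current symbol, 2177 updated through a synonym and 77 kept. Named are all member probes, the measured relatives, up to 4 called genes with the largest change of each list, the 3 nearest measured neighbours on each side and the 5 nearest patterns. Members and lists were chosen with earlier results of these data known. Motifs were searched in RefSeq promoter windows with Python 3.11.15, and plots used matplotlib 3.10.9. The fit was tested on simulated data. Alternatives were other scalings (cyclic loess, median, none), an offset of 50 or a floor of 32 before log2, leaving dim probes out, a replicate block and leaving out each array. The replicate numbers of the arrays did not pair them, as the array differences of 2 doses correlated at −0.08 to 0.11 over all probes, above 0.1 in 1 of 6 pairs of doses.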

Additional observations from a re-analysis of the deposited data

How the results depend on the processing

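The EXOC3L2 difference at 100 μM, 2.23 by default, ran over the alternatives from 1.92 with an offset of 50 to 2.48 with median scaling, and from 1.96 to 2.39 when 1 array was left out. The count of subunit probes past the limma test at 100 μM, 1 by default, was 3 with median scaling and 9 without scaling, and 0 to 1 when 1 array was left out. At 50 μM, where it was 0, it became 4 with median scaling, 2 with an offset of 50 and 1 with a floor of 32. At 10 μM, where it was 0, it became 2 with median scaling and 10 without scaling. It was 1 each with the filter on dim probes, the offset of 50 and the floor of 32. The shares of all probes called at 10 and 50 μM under these alternatives were not computed. The dose trend, which called 0 of all 31741 probes by default, gave 0 subunit probes under each alternative run, and was not run with the replicate block.

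With the replicate number as a block, 1 subunit probe passed at 100 μM, EXOC1 (limma adjusted p = 0.0188), and EXOC6B (0.0536), STX1A (0.0755), STXBP5 (0.0825), COG5 (0.0813) and BLOC1S3 (0.0591) no longer passed. EXOC1 passed in 14 of 15 alternatives and EXOC6B in 6 of 15, with adjusted p = 0.0526 under cyclic loess and 0.130 under median scaling. With median scaling STX1A (0.431) and BLOC1S3 (0.379) did not pass, and without scaling STXBP3 (0.145), VPS54 (0.0523) and NRP1 (0.502) did not. TNFAIP2 did not pass by default but did with median scaling (0.0300), no scaling (0.00723), an offset of 50 (0.0375) and a floor of 32 (0.0475), and NKPD1 with that offset (0.0419), that floor (0.0278) and without the first array at 100 μM (0.0332).

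Median scaling turned the sign at 100 μM of EXOC3 brighter (−0.17), EXOC4 brighter (−0.090), EXOC5 brighter (−0.22), EXOC6 (−0.19), EXOC7 (−0.25), EXOC3L4 (0.43), NRP1 (0.053), NKPD1 (0.11) and TRAPPC6A (−0.071). No scaling did so for EXOC3 brighter (−0.49), EXOC4 brighter (−0.41), EXOC5 brighter (−0.53), EXOC6 (−0.51), EXOC7 (−0.56), EXOC3L4 (0.12), STX1A (−0.16), TRAPPC6A (−0.39) and BLOC1S3 (−0.19), and cyclic loess for EXOC5 brighter (−0.0061). With 1 array left out, values crossed 0 for 7 probes, none of which passed the test with all arrays. The ranges were −0.17 to 0.29 for EXOC7, −0.090 to 0.031 for EXOC3L1, −0.19 to 0.18 for EXOC2, −0.15 to 0.085 for EXOC3 dimmer, −0.012 to 0.32 for EXOC3 brighter, −0.23 to 0.0089 for EXOC3L4 and −0.040 to 0.042 for EXOC5 brighter. The cause was not tested.

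The arrays hold 1 RNA sample per dose, so differences between cultures cannot be told apart from differences between doses.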
